A study of Drosophila melanogaster with 8 samples.

Results

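The genes described here make, assemble and modify chitin in Drosophila melanogaster. The list holds 10 genes, Gnpnat, mmy, kkv, knk, rtv, verm, serp, Cda4, Cda5 and Cda9. A gene counted as measured when the platform annotation gave a probe set its symbol and no other, which held for 9 of the 10 among 11983 genes so measured. The gene rtv had no such probe set and is not analysed here. Together the 9 genes had 11 probe sets, since Gnpnat had 3, and the probe set of highest mean intensity stands for each gene.

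Chitin is a polymer of N-acetylglucosamine and stiffens the cuticle that the epidermis and the airways secrete. Its building block, UDP-N-acetylglucosamine, comes from the hexosamine pathway, in which Gfat enzymes add an amino group to fructose phosphate, Gnpnat acetylates the product, and mmy (mummy) joins it to UDP. The same nucleotide sugar also feeds protein glycosylation and membrane anchors. The synthase kkv (krotzkopf verkehrt) polymerises it at the apical cell membrane, knk (knickkopf) and rtv (retroactive) are needed to order the fibres, and chitin deacetylases remove acetyl groups from them. At puparium formation the larval cuticle is kept and hardens into the pupal case.

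Each of 8 arrays held total RNA of 1 whole white prepupa, at 0 h after puparium formation. The animals were bap170;bap180 double mutants or wild type of the strain w1118, with 2 females and 2 males of each genotype. The mutated genes, Bap170 and polybromo (labelled bap180), encode subunits of the PBAP form of the Brahma chromatin remodelling complex. The labels used here give neither the alleles nor the genetic background of the mutants.

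Values are log2 of the deposited intensities, so a difference of 1 is a 2-fold change. The targeted genes were both lower in double mutants, with log2 differences of -1.32 ± 0.12 for Bap170 and -1.63 ± 0.12 for polybromo (SE, n = 4 arrays per genotype, limma adjusted p = 0.00264 and 0.00121). The 2 arrays of a group correlated at r = 0.977 to 0.99 over probe sets. Replicate 2 of the mutant males stood apart from the other males on the first principal component, with a score of 26.7 against 53.4 to 59.6. Without it the differences of Gnpnat (-1.43, limma adjusted p = 0.00225) and Cda4 (-1.45, adjusted p = 0.00667), described next, still passed. Fewer cells of a type and less RNA per cell cannot be told apart in whole animals.

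Of the 9 measured chitin genes 2 fell in double mutants, Gnpnat and Cda4, and 0 rose. In the limma fit 3.66% of all 11983 genes were called for genotype in either direction with 1.98% lower and 1.68% higher, at an adjusted p under 0.05. Both falls were about equal in size, 2.7-fold for Gnpnat and 2.64-fold for Cda4, and each was seen in both sexes. In all probe sets together 2.79% were called. The members were chosen with earlier results of these data known, so 2 of 9 cannot be read as a trait of chitin genes. The other 7 genes did not pass, with differences of -0.24 (knk) to 0.60 (Cda9). The median difference of the 9 genes was -0.02, beside -0.01 over all genes. Arrays of the genotypes did not overlap for 2 of the 9 genes, the same 2 that were called, beside 7.86% of all genes.

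**Figure D1:**
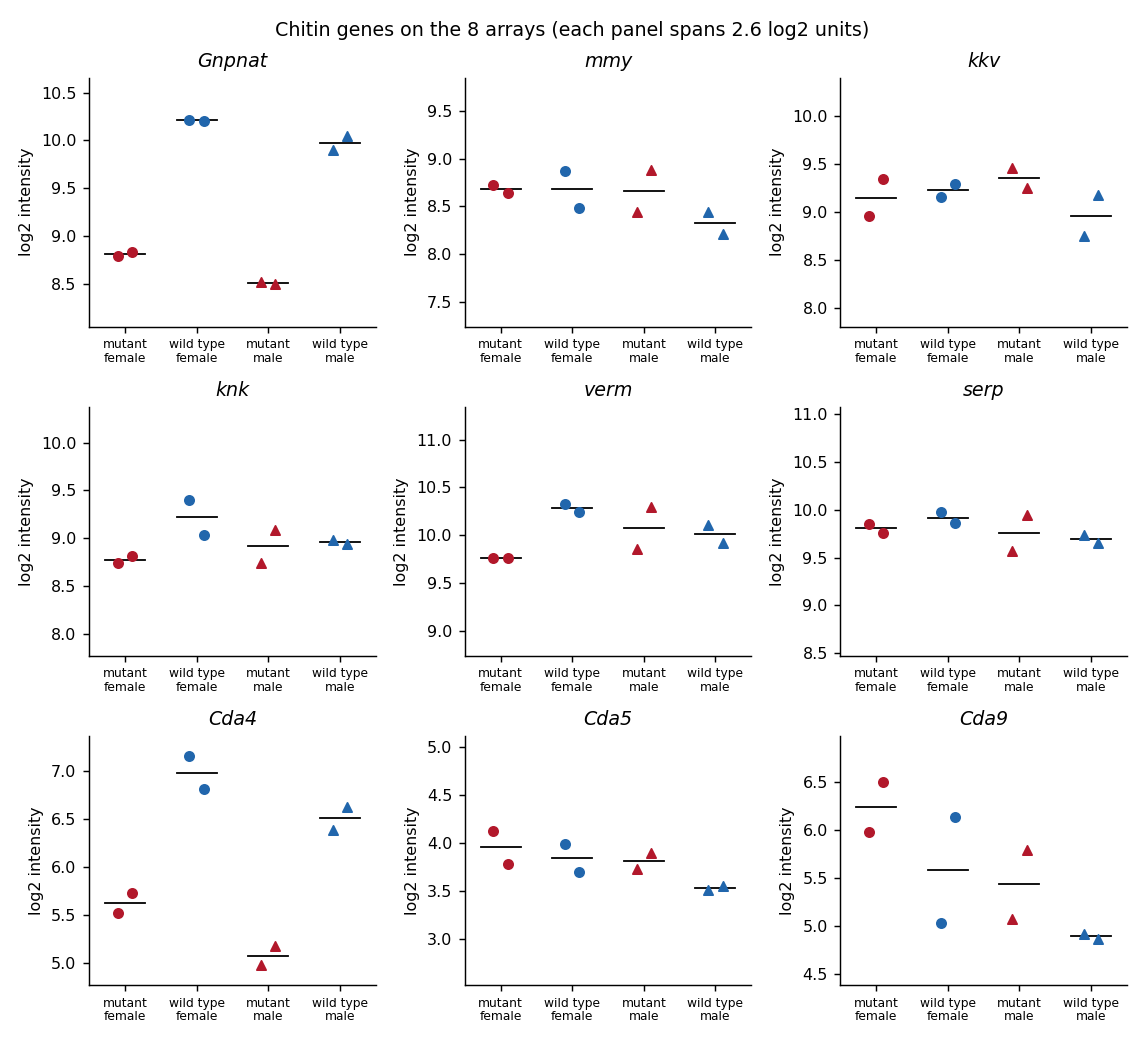
Log2 intensity of the 9 measured chitin genes on each of the 8 arrays, by group, with 1 point per animal and a bar at the mean of each group of 2. Circles are females, triangles are males, red is double mutant and blue is wild type. All 4 mutant arrays lie below all 4 wild type arrays for Gnpnat and Cda4 and for no other gene.

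The largest fall belonged to Gnpnat, the glucosamine-phosphate N-acetyltransferase of the hexosamine pathway. Its log2 intensity was 8.79 and 8.84 in mutant females, against 10.21 and 10.21 in wild type females. In males it was 8.52 and 8.50 in mutants, against 9.90 and 10.05 in wild type. The highest mutant array thus stood more than 1 log2 unit below the lowest wild type array, while replicates of a group differed by 0.01 to 0.15. Over both sexes Gnpnat averaged 8.66 ± 0.18 in mutants and 10.09 ± 0.15 in wild type (SD, n = 4). The difference was -1.43 ± 0.09 (SE), with a 95% interval of -1.64 to -1.23 (limma adjusted p = 0.000444). Ordered by p, it was number 20 of the 11983 genes for genotype.

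The fall of Gnpnat passed within each sex. It came to -1.39 ± 0.12 in females (SE, n = 2 per group, limma adjusted p = 0.00503) and to -1.47 ± 0.12 in males (adjusted p = 0.00406). The male difference minus the female difference was -0.07, with a 95% interval of -0.48 to 0.33 (limma adjusted p = 0.93 for the interaction). The call within females ended without replicate 2 of the wild type females (-1.40, adjusted p = 0.0559). The call over both sexes held in all 15 alternative settings, with adjusted p of at most 0.00527.

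A second bright probe set of Gnpnat fell too. Its log2 intensity was 7.94 and 7.87 in mutant females and 7.58 and 7.60 in mutant males, against 9.40 and 9.40 in wild type females and 9.06 and 9.20 in wild type males. The difference was -1.52 ± 0.09 (SE, n = 4, limma adjusted p = 0.000361). The third probe set was dim on every array, between the percentiles 0.49 and 13.7 of all probe sets. Its mean was 3.36 in mutants and 3.60 in wild type, and the difference of -0.25 ± 0.09 did not pass (adjusted p = 0.297). With all 3 probe sets averaged into 1 value, the difference of Gnpnat was -1.07 (adjusted p = 0.00179).

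**Figure D2:**
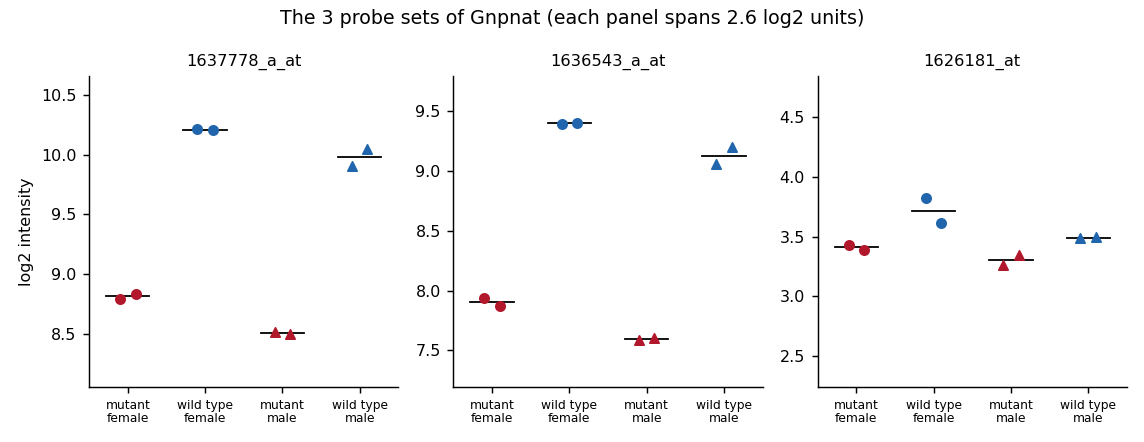
Log2 intensity of the 3 probe sets of Gnpnat on the 8 arrays, each panel on its own axis of equal span, with red for double mutant, blue for wild type, circles for females and triangles for males, and a bar at each group mean. Both bright probe sets are lower on all mutant arrays, with mean differences of -1.43 and -1.52, and the dim one differs by -0.25.

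Cda4, one of the chitin deacetylase genes, was the other member that fell. In females its log2 intensity was 5.51 and 5.73 in mutants, against 7.16 and 6.81 in wild type. In males it was 4.98 and 5.17 in mutants, against 6.38 and 6.63 in wild type. The mutant arrays were all lower than the wild type arrays, and replicates of a group differed by 0.19 to 0.35. Cda4 averaged 5.35 ± 0.34 in mutants and 6.74 ± 0.33 in wild type (SD, n = 4). The difference was -1.40 ± 0.13 (SE), with a 95% interval of -1.70 to -1.10 (limma adjusted p = 0.00264).

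Of the 9 chitin genes only Gnpnat and Cda4 were called within females (1.22% of all genes, 0.826% lower) and within males (1.36% of all genes, 0.759% lower). The difference of Cda4 was -1.36 ± 0.18 in females (SE, n = 2 per group, limma adjusted p = 0.0240) and -1.43 ± 0.18 in males (adjusted p = 0.0179). The male minus the female difference was -0.07, with a 95% interval of -0.67 to 0.53. Most calls of Cda4 within a sex ended when an array of that sex was left out. Without mutant female replicate 1 or 2 the female call ended (adjusted p = 0.157 and 0.108), as it did without wild type female replicate 1 or 2 (0.135 and 0.0807). The male call ended without mutant male replicate 1 (0.0526) and without wild type male replicate 1 or 2 (0.0551 and 0.0735), and held without mutant male replicate 2 (0.0477). Over both sexes the call held in all 15 alternatives (limma adjusted p of at most 0.0155). On the mutant male arrays Cda4 was near the middle of all probe sets, with a lowest percentile of 48.5.

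**Figure D3:**
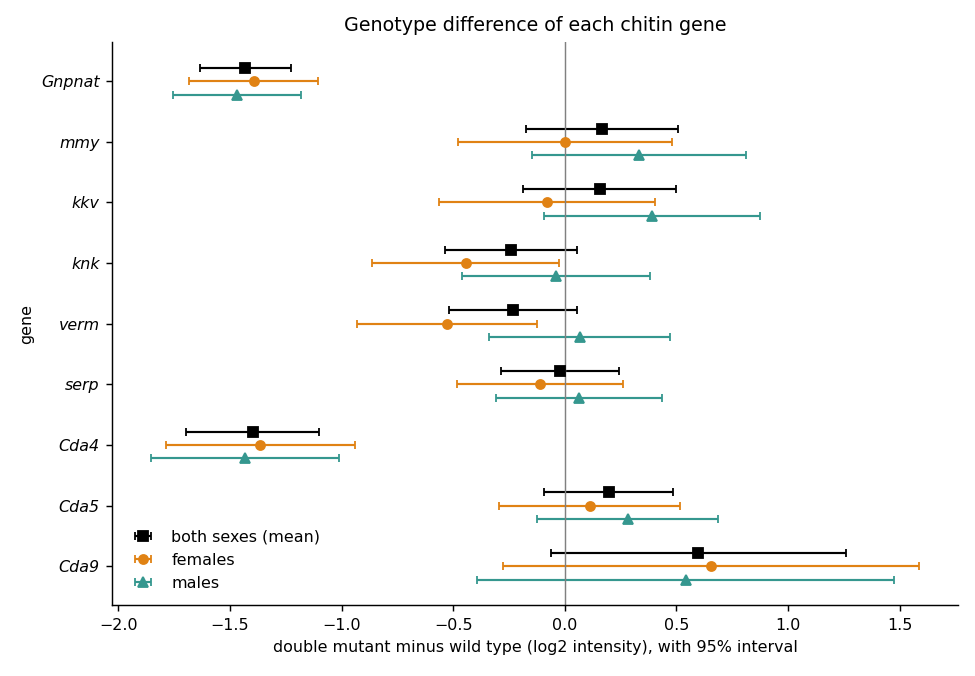
Log2 difference of double mutant minus wild type for each of the 9 chitin genes, as the mean of both sexes (black squares, n = 4 per genotype), in females (orange circles) and in males (green triangles, n = 2 per group each). Bars are 95% intervals from the limma fit. Gnpnat and Cda4 lie near -1.4 in both sexes, and the intervals of the other 7 genes over both sexes include 0.

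Of the genes that act after Gnpnat in making and ordering the fibre, mmy, kkv and knk did not pass the test. For mmy, the UDP-N-acetylglucosamine pyrophosphorylase that completes the nucleotide sugar, log2 intensity was 8.73 and 8.64 in mutant females, against 8.87 and 8.49 in wild type females. In males mmy was at 8.44 and 8.88 in mutants, against 8.44 and 8.21 in wild type. The values overlapped in females. In males the mutant arrays were the higher ones, but only just, at 8.440 against 8.438 where closest. The difference over both sexes was 0.17, with a 95% interval of -0.17 to 0.51 (limma adjusted p = 0.786). A fall as large as that of Gnpnat lies outside this interval.

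The chitin synthase gene kkv was measured at 8.95 and 9.34 in mutant females, against 9.16 and 9.29 in wild type females. In males kkv was at 9.46 and 9.25 in mutants, against 8.74 and 9.18 in wild type, where the mutant arrays were the higher ones. Its difference over both sexes was 0.16, with a 95% interval of -0.19 to 0.50 (limma adjusted p = 0.81). For knk, whose product organises chitin in the cuticle, the arrays stood at 8.74 and 8.81 in mutant females, against 9.41 and 9.04 in wild type females. In males knk was at 8.75 and 9.09 in mutants, against 8.98 and 8.94 in wild type. The female arrays of knk did not overlap and the male arrays did. With 2 arrays per group this says little, since 5 of the 9 genes did not overlap in females and 6 in males. The share over all genes was not computed within a sex. Over both sexes the difference of knk was -0.24, with a 95% interval of -0.54 to 0.06 (limma adjusted p = 0.513).

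The secreted deacetylases verm (vermiform) and serp (serpentine), which limit the length of airway tubes in the embryo, are encoded by neighbouring genes with 0 genes between them. Log2 intensity of verm was 9.76 and 9.76 in mutant females, against 10.33 and 10.25 in wild type females. In males verm was at 9.86 and 10.29 in mutants, against 10.11 and 9.92 in wild type. Thus the female groups stood apart by more than their replicates did, while the mutant males enclosed the wild type males. The difference of verm was -0.53 ± 0.17 in females (SE, n = 2 per group, limma adjusted p = 0.354) and 0.07 ± 0.17 in males (adjusted p = 0.936). Neither passed, nor did the difference between the sexes of 0.59, with an unadjusted p of 0.044 and an adjusted p of 0.766. An unadjusted p under 0.05 for this interaction was found for 8.13% of all genes.

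For serp the values were 9.85 and 9.76 in mutant females, against 9.97 and 9.86 in wild type females. In males serp was at 9.57 and 9.94 in mutants, against 9.73 and 9.65 in wild type. Its 8 arrays spanned 0.40 log2 units, the narrowest range of the 9 genes, and the difference was -0.02, with a 95% interval of -0.29 to 0.24 (limma adjusted p = 0.985).

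Both remaining deacetylase genes were weakly detected or variable. Cda5 was dim on all arrays, between the percentiles 3.67 and 27.5, at 4.12 and 3.78 in mutant females, against 3.99 and 3.69 in wild type females. In males Cda5 was at 3.73 and 3.89 in mutants, against 3.51 and 3.55 in wild type. Its difference of 0.20 did not pass (95% interval -0.09 to 0.48, limma adjusted p = 0.623). Cda9 was at 5.99 and 6.50 in mutant females, against 5.04 and 6.14 in wild type females. In males Cda9 was at 5.07 and 5.79 in mutants, against 4.92 and 4.87 in wild type. Its replicates differed by up to 1.10, in wild type females, which is more than the genotype difference of 0.60 (95% interval -0.06 to 1.26, adjusted p = 0.441).

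**Figure D4:**
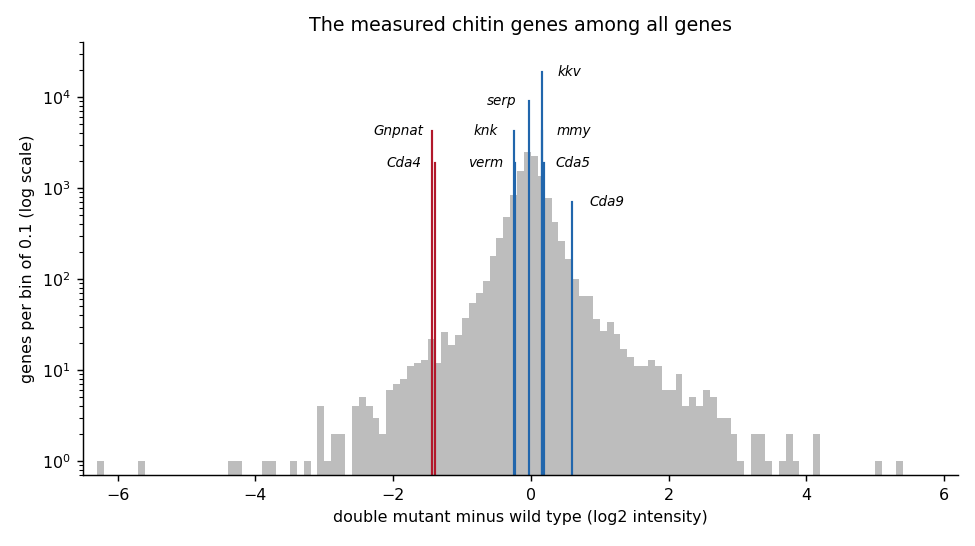
Distribution of the log2 difference, double mutant minus wild type, over 11983 genes (grey bars, number of genes per bin on a log scale), with a line at each of the 9 chitin genes. Lines are red for the called genes Gnpnat (-1.43) and Cda4 (-1.40) and blue for the others, which lie between -0.24 and 0.60. Line heights only separate the names.

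The profiles of Gnpnat and Cda4 over the 8 arrays were close to each other. Likeness was measured as the root mean square distance between 2 genes after each was centred on its own mean, so that 0 would be an identical shape. Gnpnat and Cda4 were 0.17 log2 units apart, while each varied around its own mean by 0.73 and 0.76 and the median gene was 0.77 and 0.78 away. Of 11982 other genes Cda4 was the second nearest to Gnpnat, after Tsf3, a transferrin-family gene (0.14), and before Prip, an aquaporin gene (0.18). Gnpnat in turn was the nearest gene to Cda4, followed by the cytochrome P450 gene Cyp9c1 (0.19) and by CG7582 (0.19). These distances describe 8 arrays that differ in genotype and sex, and were not tested. Gnpnat and Cda4 were picked as called genes with falls of like size, which by itself brings their profiles close. The other near genes named here fell too, by -1.18 (CG7582) to -1.42 (Tsf3). Among the 36 pairs of chitin genes knk and verm were closest (0.11), and Gnpnat and Cda9 were farthest apart (1.10). The neighbours verm and serp were 0.17 apart, which was number 7 of the pairs.

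Other genes of the pathway were read in the same fit. Of 81 listed genes of sugar supply, chitin handling, tanning, cell junctions and their regulation 63 were measured, of which 4 fell and 1 rose (7.94% called, beside 3.66% of all genes). An unadjusted p under 0.05 was found for 17 of the 63, beside 2046 of all 11983 genes (17.1%). The median difference of the 63 was -0.02. The lists were chosen with earlier results of these data known, so these shares cannot be read as a trait of the pathway. Without any female array or without wild type male replicate 2 the calls numbered 3. A fit without a sample leaves 1 animal in its group, which is then taken to vary like the other groups.

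In the hexosamine pathway and its sugar supply Gfat1, the glutamine:fructose-6-phosphate aminotransferase gene of the step before Gnpnat, fell and 5 other measured genes did not pass. Log2 intensity of Gfat1 was 9.0 and 8.78 in mutant females, against 10.60 and 10.28 in wild type females. In males Gfat1 was at 8.60 and 9.22 in mutants, against 10.38 and 10.10 in wild type. No mutant array reached a wild type array. The probes belong to a set that can match several transcripts, and the difference was -1.44 ± 0.17 (SE, n = 4, limma adjusted p = 0.00767). A dimmer probe set of Gfat1 can match several transcripts too. It lay between the percentiles 26.8 and 58.1 and differed by 0.04 (limma adjusted p = 0.98). It was at 4.57 and 4.23 in mutant females, against 4.07 and 4.19 in wild type females. In males it was above the array medians, at 5.94 and 5.26 in mutants, against 5.58 and 5.99 in wild type. With both probe sets averaged the difference of Gfat1 was -0.70. The gene nst, which acts between Gnpnat and mmy, was not analysed here. The paralogue Gfat2, picked with its values already known, was at -0.04 (adjusted p = 0.973). Values for the hexokinase gene Hex-A (0.51), the trehalose transporter gene Tret1-1 (0.33) and the trehalase gene Treh (0.10) did not pass either (adjusted p = 0.397, 0.466 and 0.923).

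Of the other deacetylase and synthase genes 2 of 6 were measured, and neither passed, while both had an unadjusted p under 0.05. Chs2, the chitin synthase gene of the gut lining, differed by 0.83 ± 0.21 (SE, n = 4, limma adjusted p = 0.116), and ChLD3, a chitin deacetylase-like gene, by -0.59 ± 0.16 (adjusted p = 0.149). Among 17 measured genes of fibre assembly and chitin binding mey (morpheyus), a zona pellucida domain gene that shapes the apical surface of epidermal cells, fell by 1.94 ± 0.19 (adjusted p = 0.00346). Its log2 intensity averaged 6.73 ± 0.37 in mutants and 8.67 ± 0.16 in wild type (SD, n = 4). The values of reb (-1.35), which acts with kkv in chitin deposition, and of the chitin-binding protein genes obst-I (1.07) and obst-J (1.11) did not pass (adjusted p = 0.216, 0.171 and 0.136).

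In the tanning list of 10 measured genes stw (straw), which encodes the laccase that oxidises catecholamines in the cuticle, fell by 1.85 ± 0.19 (SE, n = 4, limma adjusted p = 0.00445). It averaged 5.16 ± 0.22 in mutants and 7.0 ± 0.36 in wild type (SD, n = 4), while 2 dimmer probe sets of stw differed by 0.03 and -0.01. Mco1, a multicopper oxidase gene also studied for iron handling, rose by 0.86 ± 0.16 (adjusted p = 0.0452), and its call ended without any array other than mutant male replicate 2 (adjusted p of up to 0.164). The values of Pu (-0.71), a gene of pteridine and cofactor synthesis, and amd (-0.29) did not pass (adjusted p = 0.286 and 0.491).

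Of 17 septate junction genes, several of which are needed for the secretion of serp and verm in airways, 0 were called by limma and 2 had an unadjusted p under 0.05. The lowest adjusted p was that of bou (-0.45, adjusted p = 0.123). Further values were -0.48 for cold, -0.18 for sinu and 0.24 for nrv2 (adjusted p = 0.189, 0.503 and 0.59). Among 11 transcription factor genes grh (grainy head), a regulator of cuticle and barrier genes, fell by 0.66 ± 0.10 (SE, n = 4, adjusted p = 0.0232). The call of grh ended without any array other than mutant male replicate 1 and wild type male replicate 1 (adjusted p of up to 0.0956), and its dimmer probe set differed by -0.16 (adjusted p = 0.706). The nuclear receptor genes usp (0.32) and EcR (0.58) and the repressor gene Blimp-1 (0.71) did not pass (adjusted p = 0.176, 0.296 and 0.62).

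**Figure D5:**
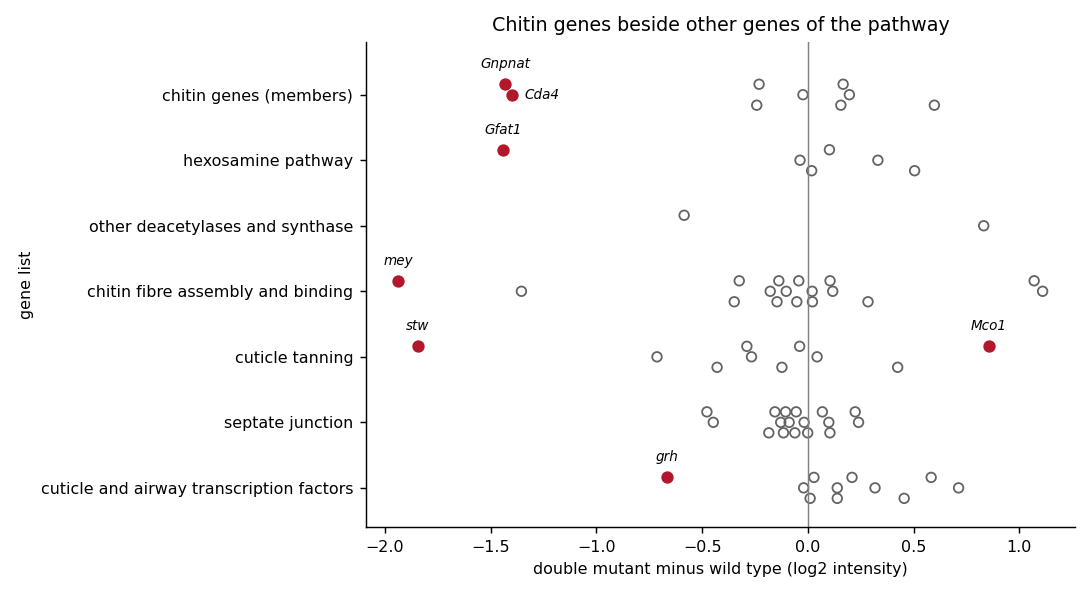
Log2 difference of double mutant minus wild type for the 9 measured chitin genes and for 63 other genes of the pathway in 6 lists, 1 circle per gene, with small vertical offsets that only separate the circles. Filled red circles are genes called by limma at an adjusted p under 0.05. Falls of Gfat1, mey and stw (-1.44 to -1.94) are of the order of those of Gnpnat and Cda4 or larger.

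Tissue markers were read beside these differences, since whole animals were used. Their counts stand beside 3.66% of all genes called (1.68% higher, 1.98% lower) and 17.1% at an unadjusted p under 0.05. Of 6 epidermal markers 0 were called by limma, with 0 at an unadjusted p under 0.05. Their summed intensity was 1133 to 1322 in mutants and 1179 to 1695 in wild type. Of 7 tracheal markers pio (piopio), a zona pellucida domain gene of airways, fell by 0.66 (limma adjusted p = 0.0238) and no other was called or had an unadjusted p under 0.05. The summed intensity of the tracheal list was 2804 to 3140 in mutants and 3245 to 4070 in wild type. These sums did not overlap, nor did those of the hemocyte and salivary gland lists given below. The median difference of the tracheal list was -0.07. Its mean log2 level did overlap, at 6.97 to 7.09 in mutants and 6.90 to 7.64 in wild type. Each sum is weighted to the brightest genes of its list. None of the markers had a value of 0 on any array, which does not show that each was detected. Among 12 hemocyte markers the receptor gene eater rose (1.83), and 6 had an unadjusted p under 0.05. The median difference of the list was 0.36, with a summed intensity of 4349 to 6900 in mutants and 2801 to 4267 in wild type. Of 8 salivary gland markers 7 had lower values in mutants and 1, sage, a higher one. Sgs1 fell (-0.65) and sage rose (1.05), and 5 of the 8 had an unadjusted p under 0.05. The median of this list was -0.51, with sums of 14102 to 17416 in mutants and 17903 to 29811 in wild type. Midgut (9 measured) and testis (10 measured) lists each held 2 genes that rose, with 4 and 3 genes at an unadjusted p under 0.05. The fat body, muscle and peritrophic lists held 0 called genes, with 1, 0 and 0 at an unadjusted p under 0.05. The marker genes named were picked with their values known. The part of these tissues in the falls of Gnpnat and Cda4 was not tested.

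Between the sexes 1 of the 9 chitin genes was called, beside 13.9% of all genes in either direction and 2.5% lower in males (10.1% of all probe sets). Cda4 averaged 5.79 ± 0.84 in males and 6.30 ± 0.80 in females (SD, n = 4), a male minus female difference of -0.51 ± 0.13 (SE, limma adjusted p = 0.0480). Males were lower than females in both genotypes, at 5.07 against 5.62 in mutants and 6.51 against 6.98 in wild type. The call ended without any 1 array (adjusted p of up to 0.155). It also depends on scaling, since centring each array on its median moved the median sex difference of all genes by -0.27 from -0.11, and 6 chitin genes were then called lower in males. That scaling left 11.5% of the sex calls over all probe sets higher in males, beside 80.1% as deposited and 45.6% after quantile normalization. Of the other members Gnpnat differed by -0.27 (adjusted p = 0.113) and Cda9 by -0.75 (adjusted p = 0.161) between males and females.

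By group mean, both falling genes kept 1 order of levels. For Gnpnat this was mutant males (8.51), mutant females (8.82), wild type males (9.98) and wild type females (10.21), and the arrays of neighbouring groups did not overlap. For Cda4 it was mutant males (5.07), mutant females (5.62), wild type males (6.51) and wild type females (6.98), again with no overlap of neighbours. With 2 arrays per group such a separation says little, and its share over all genes was not computed. Between the sexes Gnpnat was not called (limma adjusted p = 0.113), and the call of Cda4 ended without any 1 array. The genotype by sex interaction called 0 of the 9 genes and 0% of all genes in limma, with 1 of the 9, verm, at an unadjusted p under 0.05.

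Gnpnat lies on the same chromosome arm as the mutated gene polybromo, with 711 genes between them in the reference annotation. The genes kkv and knk are on that arm too, with 2983 and 2185 genes between, and Cda9 shares an arm with Bap170, with 1845 genes between. The remaining measured members, Cda4 among them, lie on other arms than both mutated genes.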

How the data were processed

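Each array was 1-colour and from Affymetrix, and took biotinylated cRNA made from TRIzol RNA, per the labels' protocols. The deposited values are intensities on a linear scale, summarised by RMA per the submitters' processing notes. Which RMA program made them, and the genome build, is not given in the sources used here, and no coordinates are printed. Array medians (log2) were 4.80 to 4.87 in females and 5.05 to 5.13 in males.

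Values were taken to log2. Leaving out 183 control probe sets left 18769, of which 13647 had 1 gene symbol, 402 several and 4720 none. Differences were tested with limma (version 3.58.1, R 4.3.3), by lmFit and eBayes on 4 group means, with Benjamini-Hochberg adjustment over all probe sets and a threshold of 0.05. The fit had 4 residual and 3.03 prior degrees of freedom, and was tested on simulated data. The number of arrays limits the precision, and p-values measure the spread between 2 animals per group. Intervals are 95% intervals of the moderated test.

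Named were all members, Bap170 and polybromo, up to 4 genes of lowest p per pathway list, every called pathway gene, and the 3 genes nearest in profile to each called member. Members and lists were chosen with earlier results of these data known. Alternatives covered scaling, a filter on dim probe sets (kept if above the array median on 2 arrays), a variance trend, the replicate number as a block, an additive model, averaged probe sets and each array left out. No sequences are printed.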

Additional observations from a re-analysis of the deposited data

Results flagged for a closer look

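In 1 of 22 sets of 4 arrays, each set being 1 genotype on 1 chitin probe set, an array stood far from the others. Cda9 was at 6.14 (log2) in wild type female replicate 2, against 5.04 in the next highest wild type array, and this gap made up 0.867 of the range of the 4. Chance alone flags about 5% of such sets, and a set here mixes females with males. Without that array the genotype difference of Cda9 was 0.87 in place of 0.60, and it still did not pass (limma adjusted p = 0.2).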

How the results depend on the processing

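The count of 2 called members for genotype was the same in all 15 alternatives, and that of 0 for the interaction in all 14. With 1 array left out, called members ranged from 0 to 2 for genotype in females, from 1 to 2 in males and from 0 to 0 between the sexes. Other pathway genes called ranged from 3 to 5, all probe sets for genotype from 247 to 488 and for sex from 1418 to 1843.

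Between the sexes 6 members were called after median centring, 3 after quantile normalization, and 0 with the dim filter, the variance trend or the replicate block. Over all probe sets 12522 were called for sex after median centring and 3476 after quantile normalization. Signs of values near 0 turned for kkv between the sexes (0.0034, quantile normalization), serp in males (-0.022, quantile normalization) and verm between the sexes (-0.24, median centring). With 1 array left out, signs also turned for serp over both sexes (-0.12 to 0.069) and in males (-0.12 to 0.25), and for Treh (-0.046 to 0.25). They did so in females for kkv (-0.27 to 0.12), mmy (-0.19 to 0.19) and Cda5 (-0.059 to 0.28). In males they did so for knk (-0.21 to 0.13) and verm (-0.15 to 0.28), and between the sexes for kkv (-0.14 to 0.081), knk (-0.15 to 0.030) and verm (-0.085 to 0.13). The cause was not tested.

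The replicate number as a block kept Gnpnat (adjusted p = 0.00183) and Cda4 (0.00652). Chs2 (0.0142) and obst-J (0.0181) passed with it and Mco1 (0.0627) did not. Same-numbered arrays deviated together in pairs of groups without mutant males (r = 0.18 to 0.41). They deviated apart in pairs with mutant males (r = -0.30 to -0.18). Whether the replicate number marks a batch cannot be told from these values. Bou passed after quantile normalization (adjusted p = 0.0333), ChLD3 passed without wild type male replicate 1 (0.0309) and grh did not pass with probe sets averaged (0.0908).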
